A study of Mus musculus with 8 samples.

Results

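The cytochrome P450 genes of intestinal crypts were examined in mice without Mex3a and in littermate controls. Members were the protein-coding genes whose symbol begins with Cyp and a digit, except Cyp51, which made 99 of the 55114 genes in the table. Crypts, the pockets of the gut epithelium that hold the intestinal stem cells, had been released with EDTA from the intestines of 4 KO mice (Mex3a-/-) and 4 Ctrl mice (wild type), all C57BL/6 and 8 weeks old. The KO is constitutive, with exon 1 and part of exon 2 of Mex3a deleted in every cell of the body, so a difference in crypts need not arise in the epithelium. Messenger RNA of each mouse was sequenced as 1 library, with 20324184 to 30654105 reads counted on genes per mouse.

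P450 enzymes are heme proteins that insert an oxygen atom into fatty acids, sterols, vitamins, drugs and plant compounds. Those in the endoplasmic reticulum take electrons from P450 reductase (Por) and cytochrome b5, and those in mitochondria from ferredoxin (Fdx1). In the gut, enterocytes carry most of this capacity, and nuclear receptors and the aryl hydrocarbon receptor adjust it to food, drugs and bile acids.

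Mex3a itself was at 12.3, 11.0, 15.9 and 13.7 CPM (counts scaled to library size with TMM factors) in Ctrl mice 1 to 4 and at 0.842, 1.09, 0.257 and 0.267 CPM in KO mice 1 to 4, which matches the labels. Replicates 1 and 2 of each genotype held transcripts of the Y chromosome and replicates 3 and 4 held Xist; these are called Y mice and Xist mice below. Markers of crypt stem cells summed to 4223 to 6160 CPM over the 8 mice, while those of pancreas summed to 0.320 to 1.30 CPM and those of liver to 5.78 to 12.04 CPM.

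Few of the P450 genes made up most of the P450 mRNA. No read was counted in any mouse for 21 of the 99 genes, 22 had 1 to 9 reads over all 8 mice, and 27 had a mean FPKM (fragments per kilobase of gene, scaled to library size) of at least 1. The genes without a read included Cyp7a1 and Cyp7b1 of bile acid synthesis, Cyp19a1 (aromatase), Cyp11b2 (aldosterone synthase) and Cyp2c37. The 12 genes with the highest mean FPKM held 81.0 to 87.9% of the P450 FPKM of a mouse.

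Cyp4f14, an omega-hydroxylase of leukotrienes and other fatty acids, had the highest FPKM in all 8 mice. Its mean FPKM was 67.5 ± 14.1 in Ctrl and 133 ± 72.6 in KO mice (SD, n = 4 each). Alone it held 19.8 to 33.6% of the P450 FPKM. Cyp4f40, a neighbour of the same subfamily on chromosome 17, followed with 39.6 FPKM in Ctrl and 48.9 in KO mice. It lay above Cyp3a13, the next gene by mean, in 8 of 8 mice, but in KO mouse 3 Cyp4v3 (60.5 FPKM) lay above Cyp4f40 (54.0 FPKM).

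The genes in places 3 to 9 could not be ordered by level. They were Cyp3a13, Cyp4v3, Cyp2d26, Cyp2j6, Cyp4f16, Cyp2s1 and Cyp2c65, with mean FPKM over all mice from 24.1 down to 18.6. Between neighbours in this order, the higher-ranked gene lay above the other in only 2 to 5 of the 8 mice. Cyp2c65 lay above Cyp3a25 in 7 of 8 mice, and Cyp3a25, Cyp27a1 and Cyp2c68 (10.7, 10.5 and 9.95 FPKM) again changed places between mice.

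**Figure D1:**
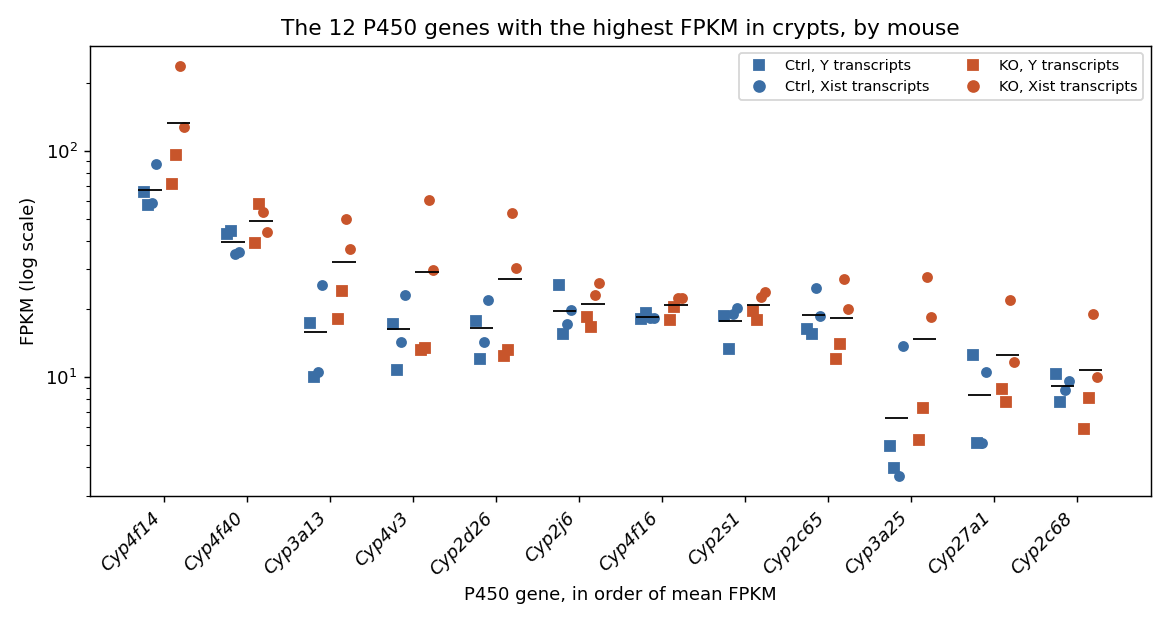
FPKM (log axis) of the 12 P450 genes with the highest mean, one point per mouse, with blue for Ctrl, orange for KO, squares for mice with Y transcripts, circles for mice with Xist, and a black line at each genotype's mean. Cyp4f14 stands highest in all 8 mice, and the genotypes overlap for each gene. The 2 highest points are both KO circles for genes that include Cyp4f14, Cyp3a13, Cyp4v3, Cyp2d26, Cyp4f16, Cyp2s1 and Cyp3a25.

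By function, the lipid and drug oxidising families 2, 3 and 4 supplied 31 of the 37 genes with enough reads to be tested (83.8%) and 78 of the 99 members (78.8%). Family 2 had 17 of its 49 genes tested, family 4 had 10 of 20, and family 3 had 4 of 9. Within family 4, 6 of 9 genes of subfamily 4f and 2 of 8 of subfamily 4a were tested. The lists of hormone, bile acid, vitamin D and retinoic acid enzymes had 5 of 18 genes tested. Of 6 genes of steroid hormone synthesis 1 could be tested (Cyp17a1), of 6 bile acid and oxysterol genes 2 (Cyp27a1 and Cyp39a1), of 3 vitamin D genes 2 (Cyp2r1 and Cyp27b1), and of 3 retinoic acid hydroxylases none. Cyp26b1, which degrades retinoic acid, had 6, 6, 3 and 21 counts in Ctrl mice and 12, 3, 3 and 5 in KO mice.

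Stretches before the gene starts were read from RefSeq (GRCm38.p6), which lists a start for 76 of the 99 genes and 30 of the 37 tested ones. In the 250 bases before a start, the element CAAAGTCCA of the enterocyte and liver factor HNF4, searched on both strands, was found in 11 of the 76 P450 genes (14.5%) and in 122 of 27025 genes (0.451%). The 11 sites are shown because the sequence around the element can be compared among these genes. Each is given on the strand of its gene with the element in capitals and 10 bases on each side.
Cyp2c40: atcattgagaCAAAGTCCAtttggaagag
Cyp2c65: gatgttggaaCAAAGTCCActgggaggag
Cyp2c67: atcattgagaCAAAGTCCAtttggaagca
Cyp2c68: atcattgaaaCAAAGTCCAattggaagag
Cyp2c69: atcattgagaCAAAGTCCAtttggaagag
Cyp2c70: aggtcaaactCAAAGTCCAaactctgtgt
Cyp3a11: aagagagtacCAAAGTCCAgtgatgcaaa
Cyp3a16: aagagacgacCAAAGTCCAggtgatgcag
Cyp3a41a: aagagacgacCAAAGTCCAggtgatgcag
Cyp3a41b: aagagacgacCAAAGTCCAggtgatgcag
Cyp8b1: agcctctgagCAAAGTCCAagggcaggaa

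The windows of the 4 tested genes lie at chr19:39060880-39060908 on the plus strand (Cyp2c65) and, on the minus strand, at chr19:39741160-39741188 (Cyp2c68), chr19:40187332-40187360 (Cyp2c70) and chr5:145879945-145879973 (Cyp3a11). The element begins 116, 77, 64 and 109 bases before the RefSeq start in these genes. In the deposited gene coordinates, where Cyp3a11 begins further upstream, its site lies inside the gene. The bases around the element are alike among Cyp2c40, Cyp2c67, Cyp2c68 and Cyp2c69 and among Cyp3a16, Cyp3a41a and Cyp3a41b, so the 11 sites are not independent of each other. A match of letters does not show that a factor binds there.

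The letters TATAAA of the TATA box were in 38.2% of the 76 genes and 14.3% of all genes. They were counted on either strand and at any distance from the start within the 250 bases. The CDX element (TTTATNG) was in 13.2% and 11.3%. The D-box of the clock factors (TTATGTAA) was in none of the 76 and in 0.977% of all genes. The xenobiotic response element (TNGCGTG) was in 1.32% and 4.76%, with Cyp2c68 as the only P450 gene. Only the 250 bases before a start were searched, so an element farther away, in Cyp1a1 or any other gene, would be missed. The stretches before Cyp4f14 and Cyp3a13 are shown because these genes had the lowest p-values among members higher in KO mice, and neither holds any of the 5 motifs. Both are on the minus strand, at chr17:32917343-32917592 and chr5:137921620-137921869. The stretch before Cyp1a1, the classical target of the aryl hydrocarbon receptor, is shown for contrast (chr9:57697363-57697612, plus strand). Its capitals mark a TATA box that begins 30 bases before the start, together with a CDX element that overlaps it on the other strand.
Cyp4f14: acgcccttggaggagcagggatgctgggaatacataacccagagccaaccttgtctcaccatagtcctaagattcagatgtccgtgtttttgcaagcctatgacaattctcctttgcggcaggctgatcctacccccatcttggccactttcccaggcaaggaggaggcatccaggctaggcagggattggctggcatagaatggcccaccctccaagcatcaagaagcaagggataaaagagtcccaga
Cyp3a13: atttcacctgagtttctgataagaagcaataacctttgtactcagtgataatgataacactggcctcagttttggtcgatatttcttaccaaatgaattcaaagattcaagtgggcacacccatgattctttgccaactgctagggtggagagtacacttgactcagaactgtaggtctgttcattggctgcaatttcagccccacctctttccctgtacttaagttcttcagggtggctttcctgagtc
Cyp1a1: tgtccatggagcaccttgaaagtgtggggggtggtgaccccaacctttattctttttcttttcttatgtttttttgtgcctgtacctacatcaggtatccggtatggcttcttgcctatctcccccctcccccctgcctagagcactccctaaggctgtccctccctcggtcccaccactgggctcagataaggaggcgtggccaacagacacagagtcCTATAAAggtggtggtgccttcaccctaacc

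No P450 gene passed the test between KO and Ctrl crypts after adjustment for all genes. In edgeR's quasi-likelihood test over 16109 genes, with Benjamini-Hochberg adjustment, the lowest adjusted p of the 37 tested members was 0.518. Of all genes tested, 0.00621% were called, which is Mex3a alone (adjusted p = 0.0310). With the replicate number as a block its adjusted p was 0.126 and 0 genes were called, and DESeq2 called 93 genes. At an unadjusted p under 0.05, 3 members were higher in KO mice (Cyp4f14, Cyp3a13 and Cyp2d22) against a background of 5.33% of all genes, and 1 was lower (Cyp4f15) against 3.05%. These are 8.11% and 2.70% of the members tested. With the replicate number as a block, 4 members were higher and 3 lower at that threshold, against 7.14% and 4.13% of all genes. DESeq2 gave 5 and 2, against 6.1% and 2.99% of all genes, and no member passed after adjustment in either fit. Without the filter on low counts, 9 of 78 members were higher and 2 lower, against 4.2% and 2.24% of all genes.

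The log2 fold changes of the members lay mostly above 0. They were above 0 for 26 and below 0 for 11 of the 37, with a median of 0.23 against -0.02 over all genes tested. The median of the members within a single mouse varied with an SD of 0.30 on the log2 scale around its genotype. That is the spread of single mice and not the error of a difference between genotypes. The shift of the median was not tested. In none of the 37 tested members did the 4 KO mice lie wholly above or below the 4 Ctrl mice, while 2.36% of all genes tested lay wholly above and 1.7% wholly below.

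**Figure D2:**
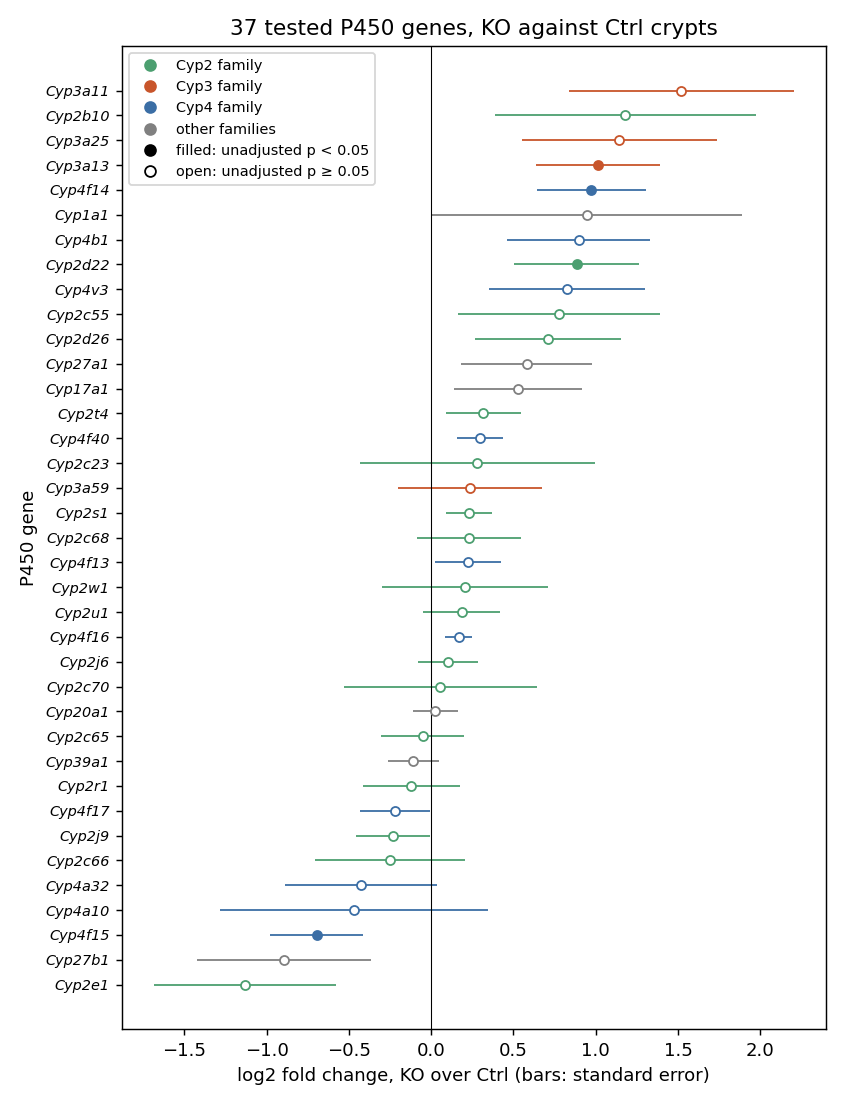
Log2 fold change of KO over Ctrl with its standard error for the 37 tested P450 genes, coloured by family, with filled points at an unadjusted p under 0.05. The values run from -1.13 for Cyp2e1 to 1.52 for Cyp3a11, and the 4 genes of the Cyp3 family all lie above 0.

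Cyp4f14 was at 159, 140, 143 and 215 CPM in Ctrl mice 1 to 4 and at 174, 235, 569 and 312 CPM in KO mice 1 to 4. KO mouse 3 lay far above the others, and KO mouse 1 lay below Ctrl mouse 4, while the KO mouse was the higher in 4 of 4 same-numbered pairs. The log2 fold change was 0.97 (standard error 0.33, edgeR unadjusted p = 0.0161, adjusted p = 0.518).

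Cyp3a13, a main intestinal enzyme of the drug and steroid oxidising CYP3A subfamily, was at 51.6, 29.8, 31.3 and 76.2 CPM in Ctrl mice and at 53.4, 71.9, 147 and 110 CPM in KO mice. The same KO mice 3 and 4 were highest, and Ctrl mouse 4 was above KO mice 1 and 2, with KO higher in 4 of 4 pairs. Its log2 fold change was 1.01 (standard error 0.37, edgeR unadjusted p = 0.0234, adjusted p = 0.545).

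The other tested genes of that subfamily also had values above 0, with a median log2 fold change of 1.08 over the 4. Cyp3a11, a known target of the pregnane X receptor and named here after its values were seen, was at 7.49, 3.63, 2.24 and 14.8 CPM in Ctrl mice and at 5.85, 10.9, 40.5 and 24.0 CPM in KO mice. Its log2 fold change was 1.52 (standard error 0.68, edgeR unadjusted p = 0.0524), and it was 0.93 without KO mouse 3 and 2.18 without Ctrl mouse 4. Cyp3a25 was at 10.4, 8.29, 7.66 and 29.0 CPM in Ctrl mice and at 11.0, 15.4, 57.7 and 38.6 CPM in KO mice. Its log2 fold change was 1.14, and it was 0.64 without KO mouse 3 and 1.80 without Ctrl mouse 4. In both genes Ctrl mouse 4 lay above KO mice 1 and 2, and only KO mice 3 and 4 stood clear of all controls. By pairs, KO was higher in 3 of 4 for Cyp3a11 and in 4 of 4 for Cyp3a25. Cyp3a59, at 0.195 to 0.838 CPM in Ctrl and 0.463 to 0.968 CPM in KO mice, had the lowest value of the subfamily, 0.24 (standard error 0.44), with KO higher in 2 of 4 pairs, and it was -0.04 in the lowest of the fits that left out 1 mouse and -0.66 within the Y mice (replicates 1 and 2).

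Cyp2d22, of the CYP2D subfamily, was at 3.38, 2.42, 2.88 and 5.94 CPM in Ctrl mice and at 3.79, 5.24, 11.2 and 6.91 CPM in KO mice. Its log2 fold change was 0.88 (standard error 0.38, edgeR unadjusted p = 0.0443), and it was 0.53 without KO mouse 3 and 1.22 without Ctrl mouse 4. The only member lower at that threshold, Cyp4f15, was at 5.98, 2.75, 3.61 and 4.56 CPM in Ctrl mice and at 2.86, 1.76, 2.70 and 3.17 CPM in KO mice. Its log2 fold change was -0.69 (standard error 0.28, edgeR unadjusted p = 0.0357). Both genes had overlapping genotypes, although all 4 pairs had Cyp2d22 higher and Cyp4f15 lower in the KO mouse, and Cyp4f15 differed in sign from Cyp4f14 and Cyp4f40 in the same cluster of chromosome 17.

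The other abundant members did not pass an unadjusted p of 0.05 in edgeR without a block. Among them, Cyp4f40 passed in DESeq2 (unadjusted p = 0.0465, adjusted p = 0.492). Cyp4f40 and Cyp4f16 had log2 fold changes of 0.30 and 0.17 with standard errors of 0.14 and 0.08. Cyp2s1, an enzyme of epithelia outside the liver, was at 92.5, 66.2, 93.7 and 101 CPM in Ctrl mice and at 96.9, 89.5, 111 and 118 CPM in KO mice. The KO mouse was the higher in 4 of 4 pairs. Its log2 fold change was 0.23 (standard error 0.14, edgeR unadjusted p = 0.133), and 0.24 when the number entered as a block (standard error 0.08, unadjusted p = 0.0205, adjusted p = 0.347). Without a block, it was 0.11 when Ctrl mouse 2 was left out and 0.30 when KO mouse 2 was left out. Cyp2j6, of a subfamily that epoxidises fatty acids, was at 56.4 to 92.1 CPM in Ctrl mice and at 60.7 to 95.1 CPM in KO mice (log2 fold change 0.10, standard error 0.18). Cyp2c65, which oxidises arachidonic acid, had a value of -0.05 (standard error 0.25). Cyp4v3, Cyp2d26 and Cyp2c68 had 0.83, 0.71 and 0.23, with standard errors of 0.32 to 0.48. Without KO mouse 3, Cyp4v3 was at 0.19, Cyp2d26 at 0.16 and Cyp2c68 at -0.20.

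Among the sterol and vitamin enzymes, none passed an unadjusted p of 0.05. Cyp27a1, the mitochondrial sterol hydroxylase of the alternative bile acid pathway, was at 27.4, 11.2, 11.2 and 23.1 CPM in Ctrl mice and at 19.4, 17.1, 47.4 and 25.5 CPM in KO mice (log2 fold change 0.58, standard error 0.40, and 0.17 without KO mouse 3). Cyp39a1, an oxysterol hydroxylase, was steadier, at 18.7 to 28.0 CPM in Ctrl and 16.9 to 25.0 CPM in KO mice. Cyp27b1, which makes the active vitamin D hormone, was at 2.37, 0.978, 0.732 and 0.711 CPM in Ctrl mice and at 1.22, 0.313, 0.428 and 0.634 CPM in KO mice. The first Ctrl mouse alone lay above all KO mice, and the log2 fold change was -0.89 (standard error 0.53, edgeR unadjusted p = 0.125). It was -0.32 without that mouse and -1.37 without KO mouse 1 (edgeR unadjusted p = 0.0314). With the replicate number as a block it was -0.87 (standard error 0.32, edgeR unadjusted p = 0.0304). Cyp2r1, which makes the circulating form of vitamin D, had a log2 fold change of -0.12 (standard error 0.29), and Cyp17a1 of steroid synthesis had 0.53 (standard error 0.39, and 0.20 without KO mouse 3) at 0.274 to 0.943 CPM.

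Several members share sequence with close relatives, so their reads may be split or dropped in counting. Of the 37 tested genes, 8 shared more than 10% of the 50-base words of their transcripts with other genes, with a median of 2.60% over all 37. The highest shares were 43.8% in Cyp4a32, 43.3% in Cyp2c68, 30.0% in Cyp3a59 and 29.8% in Cyp4a10, followed by Cyp3a25 (26.8%), Cyp2c65 (20.6%), Cyp2c66 (19.5%) and Cyp4f16 (17.4%). The values of these 8 single genes are uncertain for that reason.

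P450 genes past the unadjusted threshold were more numerous within the Xist mice than within the Y mice. Over the 38 members tested within the Xist mice (2 KO against 2 Ctrl), 14 were higher in KO and 0 lower at an unadjusted p under 0.05 in edgeR, where 8.31% of all genes were higher and 5.33% lower. Their median log2 fold change was 0.49, and the lowest adjusted p was 0.201. Over the 37 tested within the Y mice, 0 were higher and 2 lower (Cyp2w1 and Cyp2e1), where 2.78% of all genes were higher and 1.3% lower. DESeq2 was not run within these sets. The median there was -0.09. Cyp2e1, which oxidises ethanol and was named after its values were seen, was at 7.26, 2.65, 0.829 and 4.64 CPM in Ctrl mice and at 2.06, 1.37, 1.16 and 2.47 CPM in KO mice. Over all mice its log2 fold change was -1.13 (standard error 0.55, edgeR unadjusted p = 0.0695), and -0.90 when the number entered as a block (standard error 0.36, unadjusted p = 0.0407). Without Ctrl mouse 1 it was -0.62.

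The 14 genes were Cyp1a1, Cyp4f16, Cyp4f40, Cyp4f14, Cyp2d26, Cyp2j6, Cyp2w1, Cyp2b10, Cyp4v3, Cyp2u1, Cyp3a13, Cyp4b1, Cyp2s1 and Cyp4f13. For Cyp4f14 the log2 fold change was 1.30 within Xist mice and 0.44 within Y mice (standard errors 0.33 and 0.18). For Cyp4v3, a fatty acid omega-hydroxylase, it was 1.25 and -0.08 (standard errors 0.39 and 0.23). Cyp2b10, the classical target of the constitutive androstane receptor, was at 10.0, 1.72, 2.73 and 9.24 CPM in Ctrl mice and at 1.85, 6.49, 29.1 and 16.6 CPM in KO mice, or 1.92 within Xist mice and -0.51 within Y mice on the log2 scale. In Cyp4f14, Cyp4v3 and Cyp2b10 KO mouse 3 held the highest value, and over all mice Cyp2b10 was at 1.18, or 0.48 without that mouse.

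The difference between the sets was itself tested with an interaction term. At an unadjusted p under 0.05, the log2 fold change of KO over Ctrl was more positive in Xist mice in 6 of 37 members (16.2%). It was more positive in Y mice in 0, against 2.11% and 1.71% of all genes. The lowest adjusted p of the members was 0.974. The 6 members were Cyp2w1, Cyp2d26, Cyp2u1, Cyp3a59, Cyp4v3 and Cyp2c68. Cyp2w1, a P450 known from fetal gut and colon tumours and named after its values were seen, was at 2.88, 2.61, 3.17 and 3.18 CPM in Ctrl mice and at 1.09, 1.45, 6.30 and 4.81 CPM in KO mice. Its KO mice lay below all controls in the Y set and above all controls in the Xist set, and the interaction was 1.93 on the log2 scale (standard error 0.40, edgeR unadjusted p = 0.00142).

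Cyp1a1 had 16, 38, 1 and 1 counts in Ctrl mice and 12, 77, 18 and 22 counts in KO mice. Over all mice its log2 fold change was 0.95 (edgeR unadjusted p = 0.343). It was 0.06 without KO mouse 2 and 2.17 without Ctrl mouse 2. Within Xist mice, 40 counts in KO stood against 2 in Ctrl, a ratio of 16.4 after scaling to library totals (exact 95% interval 4.26 to 140, counting error only). Within Y mice the second mouse of each genotype was highest and the log2 fold change was 0.48 (standard error 0.86). Of 4 other genes that the aryl hydrocarbon receptor induces and that could be tested, 0 were higher in KO mice over all mice at an unadjusted p under 0.05 and 1 was lower, Ugt1a6a (log2 fold change -0.33). Of all genes, 5.33% were higher and 3.05% lower.

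**Figure D3:**
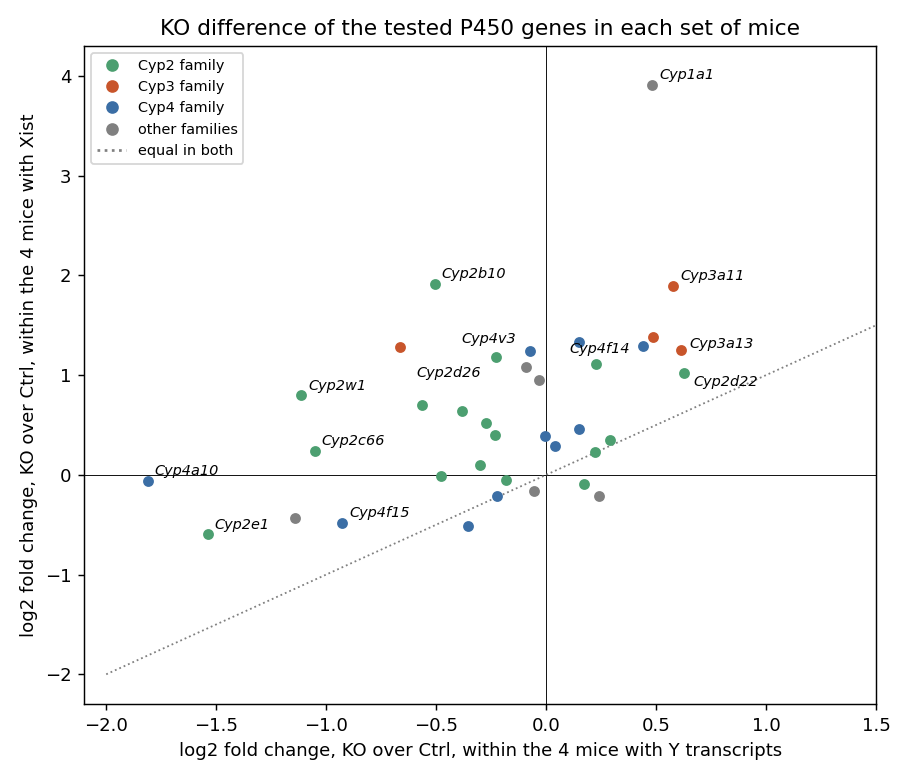
Log2 fold change of KO over Ctrl in the 4 mice with Y transcripts (horizontal axis) against that in the 4 mice with Xist (vertical axis), one point per P450 gene tested in both, coloured by family. Cyp1a1 lies highest at 3.91 in Xist mice and 0.48 in Y mice, and most points lie above the dotted line of equal values.

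Apart from genotype, 13 of the 37 members were higher in Xist than in Y mice at an unadjusted p under 0.05 and 1 was lower (Cyp1a1), against 9.91% and 7.91% of all genes, with the genotype as a second term in edgeR. The lowest adjusted p was 0.101, that of Cyp2c65. Cyp2c65 was at 31.7 and 30.2 CPM in the Y mice and at 48.0 and 36.4 CPM in the Xist mice of the Ctrl group, and at 23.3 and 27.3 CPM against 52.0 and 39.1 CPM in the KO group. Every Xist mouse lay above every Y mouse, and the log2 difference was 0.65 (standard error 0.14). Cyp3a25 followed with 1.43 (standard error 0.40).

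The 2 sets of mice also differed in clock genes, a list chosen after seeing the data. Dbp, a clock output factor known to act on P450 genes, was at 2.42 and 1.02 CPM in Ctrl and 1.01 and 1.13 CPM in KO Y mice, and at 10.6 and 11.7 CPM in Ctrl and 14.1 and 13.99 CPM in KO Xist mice. The log2 difference was 3.18 (standard error 0.31, edgeR adjusted p = 0.00948). Its relative Tef differed by 2.36 (adjusted p = 0.0491) and the clock gene Per3 by 1.16 (adjusted p = 0.0491). Of the 11 clock genes, 8 were higher and 2 lower in Xist mice at an unadjusted p under 0.05, against the 9.91% and 7.91% of all genes, and these 3 were the ones past the adjusted threshold. Sex, time of day and any shared handling of replicates 1 and 2 against 3 and 4 cannot be told apart in these data.

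Villus enterocyte markers were high in the same mice as the P450 genes. The list of 12 markers summed to 2994, 2091, 3206 and 5406 CPM in Ctrl mice 1 to 4 and to 3351, 4209, 12470 and 7807 CPM in KO mice 1 to 4, with 12 of 12 above 0 and 3 higher at an unadjusted p under 0.05. P450 FPKM summed to 331, 255, 274 and 364 in Ctrl mice and to 288, 345, 703 and 473 in KO mice. KO mice 3 and 4 were highest in both sums and Ctrl mouse 4 was highest among the controls. All 7 ileal enterocyte markers were higher in KO mice at an unadjusted p under 0.05, with sums of 158 to 543 CPM in Ctrl and 564 to 1101 CPM in KO mice. Of 8 stem cell markers 0 lay above 0, and 5 were lower at that threshold. Over all genes tested, 46.1% lay above 0, and 5.33% were higher and 3.05% lower at that threshold. Of the other lists, 3 of 8 proximal enterocyte markers lay above 0 (median log2 fold change -0.15, 1 higher and 1 lower), as did 0 of 6 Paneth markers (median -0.67, 0 past the threshold). Goblet markers lay above 0 in 6 of 6 (2 higher) and immune markers in 7 of 8 (2 higher), with immune sums of 29.1 to 36.4 CPM in Ctrl and 34.9 to 62.0 CPM in KO mice. In bulk RNA, fewer cells of a type and less RNA per cell cannot be told apart, and the part of these cell types in the P450 values was not tested.

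**Figure D4:**
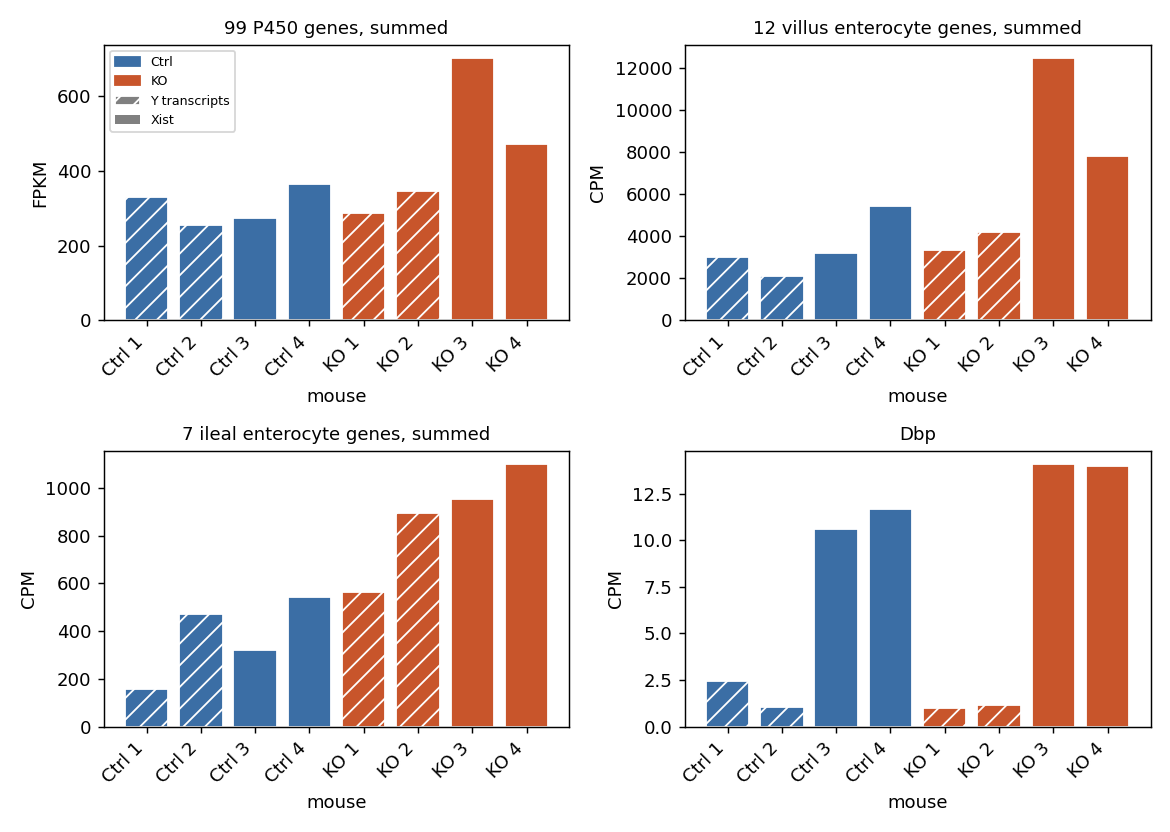
Per mouse, the summed FPKM of the 99 P450 genes, the summed CPM of 12 villus enterocyte and 7 ileal enterocyte markers, and the CPM of Dbp, with blue bars for Ctrl, orange for KO and hatching for mice with Y transcripts. KO mice 3 and 4 are highest in the first 3 panels, and all 4 Xist mice stand above the Y mice for Dbp.

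Of 18 genes that supply P450s with electrons or take part in heme metabolism, all tested, 1 was higher in KO mice at an unadjusted p under 0.05 and 0 lower, against the 5.33% and 3.05% of all genes, and the log2 fold changes ran from -0.37 to 0.35. This was Cyb5b, the cytochrome b5 of the outer mitochondrial membrane, at 306, 318, 326 and 358 CPM in Ctrl mice and at 378, 413, 483 and 403 CPM in KO mice (log2 fold change 0.35, standard error 0.10, edgeR unadjusted p = 0.00461, adjusted p = 0.518). Its genotypes did not overlap. Por was at 65.1 to 114 CPM in Ctrl and 62.1 to 140 CPM in KO mice, and the log2 fold changes of Cyb5a, Fdx1 and Fdxr were 0.08, 0.05 and -0.07. The lowest value, -0.37 (standard error 0.40), was that of Hmox1, the heme oxygenase that degrades heme, at 0.502 to 0.776 CPM in Ctrl and 0.168 to 0.704 CPM in KO mice.

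Of 25 transcription factors known to govern P450 genes, 24 could be tested. At an unadjusted p under 0.05, 2 were higher in KO mice and 0 lower, against the 5.33% and 3.05% of all genes. Nr1h4, the bile acid receptor FXR, was at 67.2, 41.8, 38.5 and 49.0 CPM in Ctrl mice and at 63.9, 71.1, 57.3 and 69.1 CPM in KO mice (log2 fold change 0.40, standard error 0.16). Ppard had a log2 fold change of 0.17 (standard error 0.06). The value farthest from 0 in the list was that of Hlf, a relative of Dbp, at 0.89 (standard error 0.74, edgeR unadjusted p = 0.258). Several receptors had values close to 0, with Ahr at 0.02, Nr1i2 (the pregnane X receptor) at 0.02, Vdr at -0.07, Ppara at -0.08, Hnf4a at -0.04 and Nr5a2 at -0.01. Over the 8 mice Hnf4a was the most abundant of the list.

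Of 8 tested co-targets of the pregnane X and constitutive androstane receptors, 4 lay above 0 and 0 passed an unadjusted p of 0.05 in either direction. Their list of 9 summed to 569, 353, 501 and 617 CPM in Ctrl mice 1 to 4 and to 431, 401, 687 and 741 CPM in KO mice 1 to 4, with KO mice 3 and 4 highest. Of 8 fatty acid receptor (PPAR) co-targets, 2 lay above 0 and 1 was lower, against 3.05% of all genes. This was Plin2, a coat protein of lipid droplets (log2 fold change -0.29). The 8 co-targets summed to 1232, 538, 1292 and 1133 CPM in Ctrl mice and to 691, 652, 921 and 1400 CPM in KO mice. In that sum 3 controls lay above KO mouse 3. Of 3 tested vitamin D receptor co-targets 1 and of 5 tested retinoid co-targets 1 lay above 0, with 0 past the threshold. The list of 8 retinoid co-targets summed to 342, 308, 318 and 411 CPM in Ctrl mice and to 313, 343, 574 and 454 CPM in KO mice, highest in KO mice 3 and 4. The vitamin D receptor list, at 156, 140, 154 and 174 CPM in Ctrl mice and 144, 145, 167 and 197 CPM in KO mice, had Ctrl mouse 4 above KO mouse 3. The list of aryl hydrocarbon receptor co-targets was lowest in KO mouse 3, at 64.7 CPM against 66.9 to 79.9 CPM in Ctrl mice. The part of these receptors in the P450 values was not tested.

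Cyp51, the P450 of cholesterol synthesis that the rule leaves out, was at 58.3, 78.9, 70.3 and 106 CPM in Ctrl mice and at 117, 144, 122 and 111 CPM in KO mice. Its KO mice lay above every control, with a log2 fold change of 0.65 (edgeR unadjusted p = 0.00340). Tbxas1, thromboxane synthase and another P450 whose symbol the rule does not match, was at 0.731, 0.186, 2.83 and 3.51 CPM in Ctrl mice and at 0.632, 0.508, 0.386 and 0.334 CPM in KO mice. Only Ctrl mice 3 and 4 stood well above the rest, the genotypes overlapped, and the log2 fold change was -1.97 (standard error 0.73, edgeR unadjusted p = 0.0243).

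The counts of P450 genes moved with single mice, as did those of all genes. The 3 genes higher at an unadjusted p under 0.05 became 1 without KO mouse 3, KO mouse 4 or Ctrl mouse 3, where 2.99%, 3.69% and 3.9% of all genes were higher. They became 11 without KO mouse 1, 7 without KO mouse 2 and 6 without Ctrl mouse 4, where 7.94%, 5.52% and 6.41% of all genes were higher. Cyp4f14 kept an unadjusted p under 0.05 in each of these fits, with log2 fold changes of 0.54 to 1.18 and a highest p of 0.0426. The p of Cyp3a13, Cyp2d22 and Cyp4f15 reached 0.0746, 0.159 and 0.116. For Cyp4f14, an exact permutation test of log2 CPM over all mice gave p = 0.0571.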

How the data were processed

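Crypt RNA of 4 Ctrl and 4 KO mice was analysed, 1 library per mouse, grouped by the genotype and number in the labels. The authors deposited unnormalized counts of reads on each gene, and FPKM values, which are those counts divided by gene length and by 1 factor per mouse, which ran from -3.95 to 5.15% relative to the counted total. The submitters' processing notes name CASAVA, HISAT2 2.0.5 and featureCounts 1.5.0-p3, and the gene coordinates are GRCm38. Columns of the authors' own comparison (group means, fold changes, p-values) were not used. Strand handling in counting is not given in the sources used here.

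Counts were tested with edgeR 4.0.16 in R 4.3.3 (filterByExpr with a minimum count of 10, TMM, quasi-likelihood test, genotype as the only term), with p-values adjusted by the Benjamini-Hochberg method over all 16109 genes tested and a threshold of 0.05. Of the 99 members, 37 passed the filter, 41 had reads but did not pass, and 21 had none, so values of the 37 are not values of all members. The p-values measure spread between mice. A count of 3 corresponds to 0.0979 to 0.148 CPM. Motifs and shared 50-base words were found with Python 3.11.15 in RefSeq promoters and GENCODE transcripts.

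Replicate numbers are shared between genotypes. Deviations of same-numbered mice correlated at 0.129, 0.501, 0.140 and 0.294 over all genes (0.0902 to 0.474 on autosomes). Mice of different numbers were not compared, and the numbers follow the Y and Xist sets, so these values cannot show that the mice were paired. The main test has no block. Where the number as a block moves a P450 gene across the unadjusted threshold, both values are given. Alternatives were DESeq2 1.42.0, RLE and upper-quartile factors, no filter, 10 counts in every mouse, limma 3.58.1 on log2(FPKM + 1) and log2(FPKM + 0.1) for genes of mean FPKM 0.1 or more, an Xist or Y term, each set of mice alone, and each mouse left out. The interaction, the term for Xist against Y and the clock list were chosen after seeing the data. Members and lists were chosen with earlier results of these data known. Named genes are the 12 with the highest mean FPKM, those at an unadjusted p under 0.05, those whose genotypes do not overlap, and tested members of the hormone, vitamin, bile acid and aryl hydrocarbon lists. The others named in the report were chosen after their values were seen.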

Additional observations from a re-analysis of the deposited data

Results flagged for a closer look

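In 4 of the 74 groups (the Ctrl and the KO mice of each of the 37 tested P450 genes), 1 mouse lay far from the other 3 by Dixon's criterion (a gap over 0.829 of the range). Chance alone flags about 1 in 20 groups, which is 3.70 of 74. Cyp3a25 was at 29.0 CPM in Ctrl mouse 4, above the next Ctrl mouse at 10.4. Cyp27b1 was at 2.37 CPM in Ctrl mouse 1, above 0.978. Cyp1a1 was at 3.01 CPM in KO mouse 2, above 0.771. Cyp4f17, whose other KO mice lay between 2.06 and 2.07 CPM, was at 2.54 CPM in KO mouse 2.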

How the results depend on the processing

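No P450 gene had an adjusted p under 0.05 in any of the 19 alternatives run. Over all genes, 1 gene was called, against 93 with DESeq2, 4 with an Xist or Y term, 4 with limma on log2(FPKM + 0.1), 4 within Xist mice, 2 without the filter, and 0 with 10 counts in every mouse, within Y mice or with the replicate block, which paired the mice by number. Leaving out 1 mouse gave 0 to 4. At an unadjusted p under 0.05, 3 P450 genes were higher in KO mice, against 5 with DESeq2, 9 without the filter (of 78 tested), 14 within Xist mice, 0 within Y mice and 1 to 11 with 1 mouse left out. There was 1 lower gene, against 2 with DESeq2, without the filter or within Y mice, 3 with the replicate block, 0 within Xist mice and 0 to 2 with 1 mouse left out. Of all genes, 3.05% were lower, against 2.99% with DESeq2, 2.24% without the filter, 1.30% within Y mice, 4.13% with the replicate block, 5.33% within Xist mice and 2.17 to 5.04% with 1 mouse left out, and the share higher was 5.33%, against 6.10%, 4.20%, 2.78%, 7.14%, 8.31% and 2.99 to 7.94% in the same order. The causes were not tested, beyond the fewer samples or other genes each alternative holds.

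The median log2 fold change of the P450 genes turned to -0.090 within Y mice. There the signs of Cyp4v3 (-0.075), Cyp2d26 (-0.23), Cyp2j6 (-0.23), Cyp27a1 (-0.090), Cyp2c68 (-0.38), Cyp17a1 (-0.032), Cyp2b10 (-0.51), Cyp2u1 (-0.27) and Cyp2w1 (-1.12) also turned, and within Xist mice those of Cyp2c65 (0.10) and Cyp2c70 (-0.10). Cyp2w1 turned to -0.10 with the Xist or Y term, -0.10 with the replicate block, and -0.13 and -0.013 with limma on log2(FPKM + 0.1) and log2(FPKM + 1). With 1 mouse left out, the ranges that crossed 0 were -0.022 to 0.26 for Cyp2j6, -0.30 to 0.11 for Cyp2c65, -0.20 to 0.43 for Cyp2c68, -0.19 to 0.012 for Cyp39a1, -0.27 to 0.085 for Cyp2r1, -0.27 to 0.50 for Cyp2w1 and -0.53 to 0.60 for Cyp2c70. For these genes, the others named by rule, Cyp3a11, Cyp4b1 and Cyp2e1, no other direction turned in the settings run. Genes with few counts, such as Cyp1a1 and Cyp17a1, carry a large counting error at this depth, and within a set of 2 against 2 mice a single mouse can set a value.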
